A study of Xenopus tropicalis with 6 samples.

Results

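The transcriptome described here is that of the normal brain of *Xenopus tropicalis* tadpoles at Nieuwkoop and Faber (NF) stage 46, a free-swimming stage before metamorphosis. It comprises the 3 uninjected control libraries of the 6 libraries sequenced, chosen by their label, and no comparison with the other 3 libraries was made. Each library held RNA from 3 dissected brains of wild-type animals that received no injection or other agent, and the other 3 came from brains of the same stage injected on both sides after the first cleavage with CRISPR reagents against *dyrk1a*. The pools are named pools 1, 2 and 3 after the replicate number of the control label, which carries no order. Each pool mixed brains, and the sex of the tadpoles in a pool is not given. The spread between pools therefore covers animals, dissection and library together, and these cannot be told apart.

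At this stage the tadpole brain already drives feeding and swimming. It holds working circuits of glutamate, GABA and glycine neurons together with radial glia, whose cell bodies line the ventricles and which serve as progenitors. Amphibian radial glia also carry out much of what astrocytes do in mammals. The adjoining choroid plexus, pituitary, pineal organ and meninges lie close enough to be taken with the brain in a dissection.

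The 3 libraries held 35071943, 23947611 and 9603583 counts over 34229 gene models, so that 3 counts, the smallest number taken here as a floor, stood for 0.0855, 0.125 and 0.312 cpm, the share of a library's counts as counts per 1000000. This floor covers counting error only. A gene model was taken as expressed where it exceeded 1 cpm in all 3 pools, and 14211 models did so, 12016 of them with a gene symbol. The median expressed model had a mean of 22.04 cpm. In the pools, 14828, 14954 and 14897 models exceeded 1 cpm, 2204, 2292 and 2263 exceeded 100 cpm, and 104, 98 and 101 exceeded 1000 cpm. These numbers differed little although the deepest library had several times the counts of the shallowest. Cpm is a share of reads and rises with the length of a transcript, and no transcript lengths were used here, so values of different genes below are shares of reads and not numbers of transcripts. The expression limit, the floor, the numbers of models per pool above and the correlation of log2 cpm below used plain library totals. All other cpm values are on TMM-scaled library sizes, a scaling that lets the bulk of genes agree between libraries. Errors are SD with n = 3 pools.

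Pool 1 stood apart from pool 2 in several groups of genes described below, of which 1 is given first because it touches several results. Of the 75 cytosolic ribosomal protein genes, a family looked at after the values had been seen, 73 were highest in pool 1 and 74 lowest in pool 2, against 37.4% and 33.7% of all expressed models. Their summed cpm was 12155, 7498 and 8753 cpm in pools 1, 2 and 3. Without pool 1 the mean of the sum was 8176 cpm and without pool 2 it was 10396 cpm, against 9469 cpm over all 3. The pairs of libraries all differed by far more than counting error, so none was a second deposit of another. The chi-square per degree of freedom was 32.6 for pools 1 and 2, 11.8 for pools 1 and 3 and 6.55 for pools 2 and 3. Where spread exceeds counting error this value also grows with depth, and pool 3 was the shallowest, so the values do not rank the pairs. Pearson's r of log2 cpm across 22621 genes, which are not independent replicates, was 0.992, 0.992 and 0.994 for the same pairs.

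The reads were spread over many genes. The 10 highest models held 4.75%, 4.36% and 4.59% of the counts of pools 1, 2 and 3. To reach 50% of the counts took 858, 901 and 874 models, and 90% took 5719, 5759 and 5717. No single tissue product dominated the libraries, as the ranked curve of cpm shows.

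**Figure D1:**
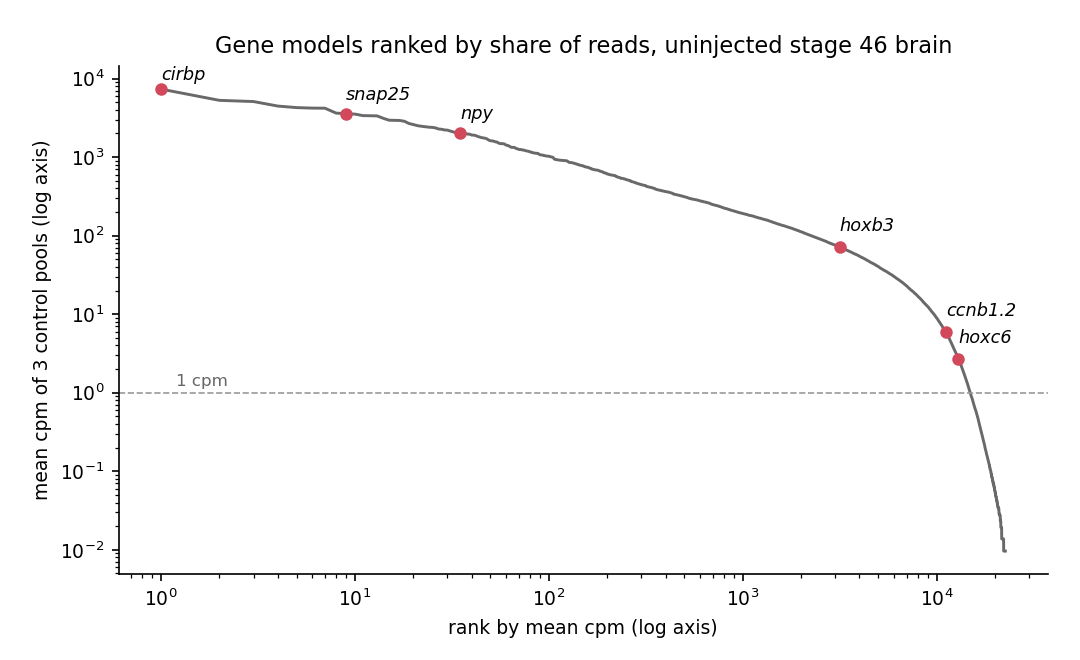
Gene models ranked by mean cpm of the 3 control pools, both axes logarithmic, with 6 genes marked in red and the expression limit of 1 cpm as a dashed line. The curve falls slowly from 7337 cpm for *cirbp* over the first models and steeply below about the level of *hoxb3* at 71.5 cpm.

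The gene with the largest share of reads was *cirbp*, which encodes an RNA-binding protein named for its induction by cold. It stood at 7363, 7321 and 7328 cpm in pools 1, 2 and 3. Every pool of *cirbp* lay above every pool of any other gene, and the 3 values differed by a ratio of 1.01. Next came *tuba1a*, an alpha tubulin of neuronal microtubules, at 5007, 5358 and 5463 cpm, and *ptma*, which encodes the nuclear protein prothymosin alpha, at 5425, 4629 and 5229 cpm. The ranges of these 2 genes overlapped, so their order is not fixed by these pools. The beta tubulin *tubb* stood at 4384, 4476 and 4527 cpm and *calm2*, 1 of the genes of the calcium sensor calmodulin, at 5316, 3516 and 3966 cpm. Whereas *tubb* was nearly level over the pools, *calm2* was highest in pool 1 and lowest in pool 2, with a ratio of 1.51. Tubulin, actin and calmodulin genes have close copies, and how reads that match several copies were counted could move values among them.

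The other genes of the 25 highest, which together held 8.79% of the counts, fell into a few kinds. Nuclear proteins were *hmgn1* and *hmgb3*, which bind chromatin, at 4205 ± 395 cpm and 3631 ± 366 cpm. The nucleic acid-binding *ybx1* had 3373 ± 199 cpm and the inhibitor of helix-loop-helix factors *id4* had 2513 ± 52.3 cpm. Neuronal membrane and vesicle genes were *snap25*, a SNARE protein of vesicle fusion, at 3568 ± 282 cpm, *sncb*, the gene of beta-synuclein, at 2596 ± 149 cpm, *gnao1*, a G protein subunit abundant in neurons, at 2948 ± 161 cpm, and *nptn*, an adhesion molecule of synapses, at 2856 ± 99.8 cpm. The amyloid precursor gene *app* had 3363 ± 237 cpm. Ion transport was represented by *atp1b3*, a subunit of the sodium pump, at 4192 ± 267 cpm and *atp6v0c*, a subunit of the vesicle proton pump, at 2938 ± 203 cpm. The glycolytic genes *gapdh* and *aldoc*, the latter a marker of radial glia and astrocytes, stood at 3525 ± 252 cpm and 2389.5 ± 82.8 cpm. Both actins, *actg1* at 3347 ± 265 cpm and *actb* at 2925 ± 95.03 cpm, *itm2b* at 2676 ± 227 cpm, *rtn1* at 2469.8 ± 209 cpm and *ywhaz*, a 14-3-3 protein, at 2438 ± 61.2 cpm made up most of the rest. Among the 25, gene6556, at 2404 ± 123 cpm, carries no symbol in the files.

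The label was checked against neuronal genes first. A model could match a list only if it had a symbol, which required over 1 cpm in at least 3 of the 6 libraries. Of the 12509 models with a symbol 12016 were expressed. Counts of expressed members therefore largely follow from the matching, here and in the later lists. For 27 entries in the pan-neuronal list 26 gene models were found and all 26 were expressed, 24 of them above 100 cpm. Their summed cpm was 26966, 25978 and 26539.9 cpm, or 2.65% of all counts, with a ratio of highest to lowest pool of 1.04. The RNA-binding protein genes *elavl3* and *elavl4*, which mark neurons from their birth, stood at 577, 592 and 599 cpm and 906, 894 and 938 cpm. All pools were within a narrow range for both. The middle neurofilament gene *nefm*, of axons, had 1126 ± 49.1 cpm, and the growth cone gene *gap43* had 929 ± 44.9 cpm. *dcx*, a microtubule protein of migrating neurons, was the lowest of the list, at 9.38, 5.24 and 5.41 cpm.

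Genes of the synaptic vesicle and of its release were as level between pools. All 25 models found for 26 entries were expressed and their sum was 20252, 19559.8 and 19885 cpm, a ratio of 1.04. Beside *snap25* and *sncb*, the complexin *cplx1* had 2279.8 ± 186 cpm, the vesicle protein gene *syp* had 1909 ± 44.9 cpm and the small GTPase gene *rab3a* had 2022 ± 68.2 cpm. The calcium sensor of release, *syt1*, stood at 827, 937 and 935 cpm, lowest in pool 1.

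On the receiving side, all 21 postsynaptic and adhesion genes listed were expressed and summed to 3188, 3487 and 3304 cpm. The neurexin *nrxn2*, in fact a presynaptic partner of the neuroligins, had 444 ± 60.5 cpm. All 4 CaM kinase II genes were present, from *camk2d* at 412 ± 2.99 cpm to *camk2g* at 225 ± 15.2 cpm. The scaffold gene *dlg4*, whose product is PSD-95, had 49.4 ± 5.47 cpm. Of these, *camk2d* varied least over the pools, at 413, 413 and 408 cpm.

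Transmitter identity was read from the transporters and enzymes that each type of neuron needs. Bulk RNA cannot tell fewer cells of a type from less RNA per cell, so none of these values counts neurons. Among the vesicular glutamate transporters, *slc17a7* stood at 409, 467 and 436 cpm, *slc17a6* at 18.3, 25.5 and 29.7 cpm and *slc17a8* at 0.953, 2.19 and 3.02 cpm. The 3 genes kept this order of read share in every pool, with no overlap between them. Pool 1 was the lowest for each of the 3.

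For GABA, the vesicular transporter *slc32a1*, shared with glycine, stood at 773, 804 and 798 cpm. The synthetic enzymes *gad1.1* and *gad2* had 531, 645 and 596 cpm and 392, 481 and 455 cpm. Both enzymes were lowest in pool 1 and highest in pool 2, while the transporter was nearly level. The enzyme that breaks GABA down, *abat*, had 1427 ± 40.4 cpm. The plasma membrane GABA transporter *slc6a13* had 98.9 ± 7.82 cpm. The glycine transporters *slc6a5*, of glycine neurons, and *slc6a9*, of glia, had 5.66, 3.68 and 4.78 cpm and 11.5, 5.78 and 6.14 cpm, both highest in pool 1.

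Acetylcholine neurons were represented by the vesicular transporter *slc18a3* at 129.5, 135 and 116 cpm, by *chat*, the synthetic enzyme, at 25.2, 31.2 and 22.98 cpm and by *slc5a7*, the choline transporter, at 29.2, 33.7 and 31.4 cpm. None of the 3 differed between pools by more than a ratio of 1.36. The factor *isl1*, of cranial motor neurons and of other neurons, had 65.2 ± 9.33 cpm. *mnx1*, a factor of spinal motor neurons, was near the expression limit at 0.722, 3.22 and 1.04 cpm, with pool 2 above the other pools. The breakdown enzyme *ache* also was lowest in pool 1, at 151, 253 and 232 cpm.

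Dopamine, noradrenaline and serotonin genes had smaller shares of reads. All 15 models matched for 17 entries were expressed and none reached 100 cpm. Tyrosine hydroxylase, *th*, stood at 64.6, 57.2 and 65.9 cpm and the dopamine transporter *slc6a3* at 43.6, 45.3 and 54.4 cpm, neither beyond a ratio of 1.25. Dopamine beta-hydroxylase, *dbh*, and *pnmt*, which makes adrenaline, had 22.1, 19.1 and 14.5 cpm and 11.9, 9.95 and 5.62 cpm, both lowest in pool 3. The 2 tryptophan hydroxylase genes did not follow each other. *tph1*, known also from the pineal organ, stood at 23.2, 35.9 and 46.3 cpm and *tph2*, of raphe neurons, at 36.8, 18.995 and 37.02 cpm. Pool 1 was the lowest for the former and pool 2 for the latter. The serotonin neuron factor *fev* was level at 8.83, 8.67 and 8.53 cpm, the serotonin transporter *slc6a4* had 3.65 ± 1.12 cpm, and the histamine enzyme *hdc* had 4.65 ± 1.15 cpm. No gene model with the symbol *slc18a2*, the vesicular monoamine transporter, was among those analysed.

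Receptor genes covered every class listed. All 24 glutamate receptor models were expressed, with sums of 1682, 1828 and 1792 cpm. The AMPA receptor subunits *gria1*, *gria2*, *gria3* and *gria4* had 262 ± 4.87 cpm, 158 ± 10.6 cpm, 54.1 ± 4.76 cpm and 190.3 ± 4.23 cpm, and *gria1* varied least, at 264, 257 and 266 cpm. The obligate NMDA subunit *grin1* had 195 ± 19.9 cpm. Its partners *grin2a* and *grin2b*, which in mammals dominate at later and earlier ages respectively, stood at 63.9, 73.6 and 70.9 cpm and 42.2, 40.8 and 40.7 cpm, and their shares of reads did not overlap. For 21 GABA and glycine receptor entries 16 models were found and all were expressed. They were led by the GABA-B subunit *gabbr1* at 713 ± 49.8 cpm, the glycine beta subunit *glrb* at 381 ± 24.7 cpm and *gabra2* at 378 ± 33.4 cpm. The glycine alpha subunits *glra2* and *glra1*, in mammals the embryonic and the adult form, had 165, 154 and 168 cpm and 15.1, 15.4 and 13.5 cpm.

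The chloride transporter *slc12a5*, which makes GABA inhibitory in mature neurons, stood at 335, 339 and 308 cpm. Its counterpart *slc12a2*, which loads chloride into young neurons and glia, stood at 40.5, 49.6 and 55.8 cpm. Their shares of reads did not overlap, and *slc12a5* was lowest in pool 3, where *slc12a2* was highest.

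**Figure D2:**
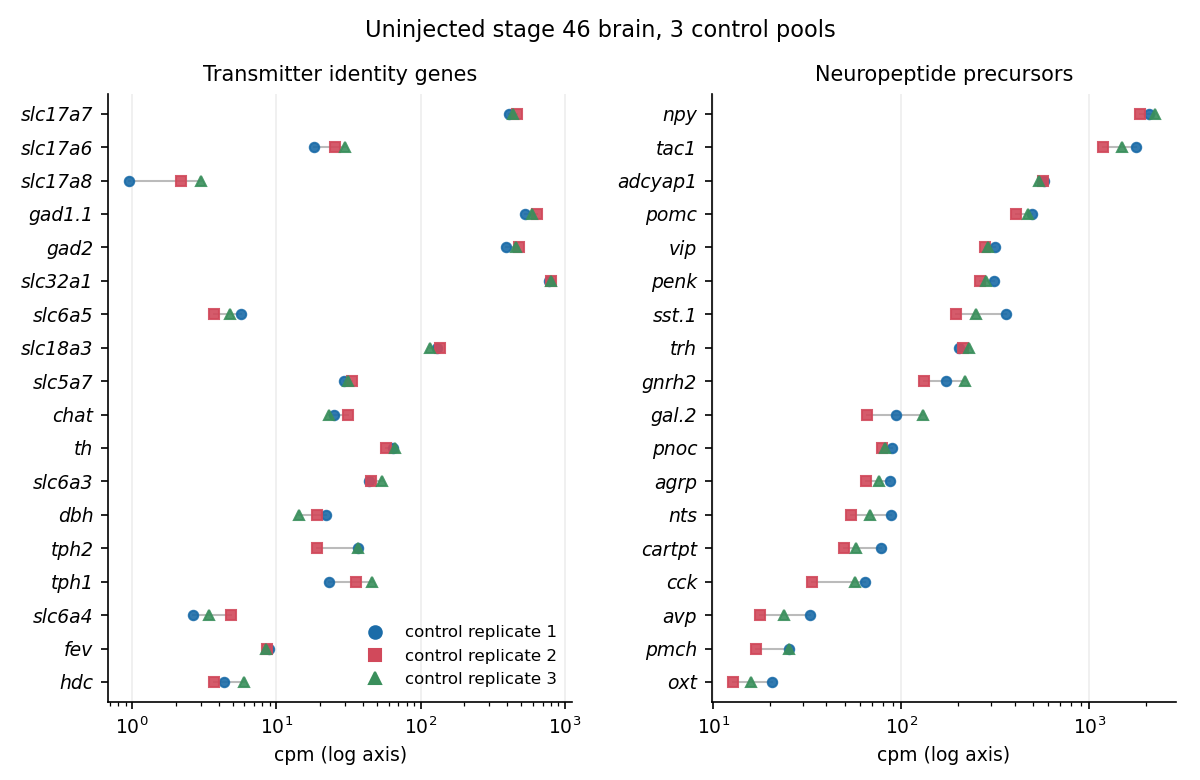
Cpm of 18 transmitter identity genes and 18 neuropeptide precursor genes on log axes, with 1 marker for each control pool and a grey line over their range. The 3 markers of *slc32a1* coincide, whereas those of *slc17a8*, *sst.1* and *gal.2* spread, and pool 2 is the lowest for most precursors.

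Genes of the neuropeptide list held 1.26% of all counts, with a median member at 76.0 cpm. For 48 entries 35 models were found, all of them expressed, and with the granins and processing enzymes of dense-core vesicles they summed to 12929, 11717 and 13171 cpm. The precursors without granins and enzymes, 29 models, summed to 7161, 5754 and 6821 cpm. *npy*, known for its part in feeding, stood at 2063, 1867 and 2229.9 cpm and ranked 35 among all models. *tac1*, the gene of substance P and neurokinin A, had 1769.7, 1186 and 1487 cpm. The precursors *adcyap1*, *vip* and *penk*, of PACAP, vasoactive intestinal peptide and enkephalins, had 561 ± 17.5 cpm, 295 ± 18.7 cpm and 286 ± 25.3 cpm. *npy* was highest in pool 3 and *tac1* in pool 1, but both were lowest in pool 2.

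Pool 2 was the lowest for 24 of the 35 neuropeptide list members, against 33.7% of all expressed models, and pool 1 the highest for 22, against 37.4%. The median ratio of pool 1 to pool 2 was 1.25 over the list and 0.99 over all expressed models. *sst.1*, a somatostatin gene, is an example, at 359, 196 and 249 cpm. The galanin gene *gal.2* at 93.6, 65.4 and 131 cpm and the gonadotropin-releasing hormone gene *gnrh2* at 172, 132 and 219 cpm instead were highest in pool 3. The hormone genes of neurosecretory neurons were low, with *avp* at 32.9, 17.8 and 23.7 cpm, *oxt* at 20.5, 12.7 and 15.9 cpm and *crh* at 4.47, 5.78 and 8.32 cpm. *trh*, the thyrotropin-releasing hormone gene, had 202, 213 and 230.0 cpm, level within a ratio of 1.14.

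Pituitary hormone genes were detected in every pool, with 11 models found for 17 entries and sums of 756, 646 and 731 cpm. *pomc*, expressed in pituitary and in hypothalamic neurons, stood at 494, 409 and 473 cpm. The growth hormone gene *gh1* had 82.3, 80.2 and 90.7 cpm, the prolactin gene *prl.1* 52.8, 34.6 and 30.5 cpm, and the common glycoprotein hormone subunit *cga* 24.8, 17.8 and 21.8 cpm. The thyrotropin subunit *tshb* had 7.85, 11.3 and 14.98 cpm and the lineage factor *pou1f1* 2.598, 3.34 and 4.89 cpm. Whereas *gh1* was nearly equal in the pools, *prl.1* was highest in pool 1 and *tshb* in pool 3, so the hormone genes did not rise and fall together.

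Region genes were described next, by the transcription factors that mark brain divisions. For 25 telencephalic entries 25 models were found and all were expressed, with sums of 1930.5, 2092 and 2109 cpm. *bcl11b*, of forebrain projection neurons in mammals, had 272, 306 and 298 cpm, and *neurod6* and *tbr1*, of pallial glutamate neurons, had 178 ± 4.12 cpm and 68.9 ± 4.71 cpm. The factors of subpallial GABA neurons *arx*, *dlx2* and *dlx5* had 178 ± 15.6 cpm, 133 ± 9.01 cpm and 114 ± 10.5 cpm. Pool 1 was the lowest for 19 of the 25, against 38.0% of all expressed models, but by small amounts, the median ratio of pool 1 to pool 2 being 0.93.

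Hypothalamic factors summed to 675, 663 and 664 cpm, the most even of the region sums. The single members were not the steadiest, with a median CV of 10.2%. It was 7.74% in the telencephalic, 8.75% in the thalamic, 9.50% in the midbrain and 9.91% in the hindbrain list. *otp*, of neurosecretory neurons, stood at 297, 289.6 and 285 cpm, *nkx2-1*, of the ventral hypothalamus, at 30.3, 35.1 and 34.3 cpm, and *bsx* at 29.3, 31.5 and 31.1 cpm. None of the 3 exceeded a ratio of 1.16 between pools. In the thalamic, habenular and pretectal list the sums were 1360.3, 1398 and 1356 cpm, with *lhx5* at 162 ± 11.99 cpm, *lhx9* at 153 ± 7.62 cpm and *barhl2* at 115 ± 12.7 cpm. Its exception was *tcf7l2*, a Wnt effector of the thalamus, at 176, 108 and 97.4 cpm, where pool 1 was well above the rest.

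Midbrain and isthmus genes summed to 1377, 1479 and 1419 cpm. *meis2* led with 354 ± 35.2 cpm, and *tal1*, *gata3* and *gata2*, which specify GABA neurons of the midbrain and hindbrain, had 180.3 ± 9.32 cpm, 125 ± 1.88 cpm and 92.9 ± 5.04 cpm. *otx2*, of forebrain and midbrain and also of choroid plexus, had 107, 101 and 93.7 cpm, and the isthmic factor *en2* had 29.4, 22.5 and 25.8 cpm. The dorsal midbrain factors *pax7* and *pou4f2* stood at 59.1 ± 7.22 cpm and 86.03 ± 4.53 cpm. Hindbrain and cerebellar genes summed to 1728, 1768 and 1786 cpm, and *ebf3*, *calb1* and *zic2* led with 626 ± 42.6 cpm, 115 ± 2.63 cpm and 108 ± 5.15 cpm, none of them restricted to the hindbrain. The granule cell progenitor factor *atoh1* was low but equal in the pools, at 7.97, 8.09 and 7.7998 cpm.

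Hox genes pattern the hindbrain and spinal cord, and genes of higher-numbered paralog groups are expressed farther back. Of 19 entries in groups 1 to 6, 15 had a gene model and all 15 were expressed. Of 21 entries in groups 7 to 13 none had a model with that symbol among those analysed. Symbols were available only for models above 1 cpm in at least 3 of the 6 libraries, so such genes may be below that level or carry another name. Group 3 had the highest sum, at 161, 177 and 131 cpm in pools 1, 2 and 3, and group 6, with *hoxc6* alone, the lowest, at 1.39, 3.80 and 2.91 cpm. Group 2 stood at 68.2, 62.0 and 56.7 cpm, group 4 at 68.4, 69.7 and 49.5 cpm and group 5 at 36.7, 39.8 and 30.5 cpm. *hoxb3* had the largest share of reads of any single Hox gene, at 70.6, 81.4 and 62.6 cpm, followed by *hoxd3* at 58.5, 56.6 and 41.7 cpm and *hoxc4* at 49.4, 47.5 and 34.1 cpm.

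The Hox sum was 341, 358 and 275 cpm, and 14 of the 15 genes were lowest in pool 3, against 28.4% of all expressed models. The exception was *hoxc6*, lowest in pool 1. Without pool 3 the mean sum was 349 cpm, and with it 325 cpm. In the hindbrain and cerebellar list 13 of 23 expressed members were also lowest in pool 3, while its sum was highest there, its largest member *ebf3* being highest in pool 3.

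**Figure D3:**
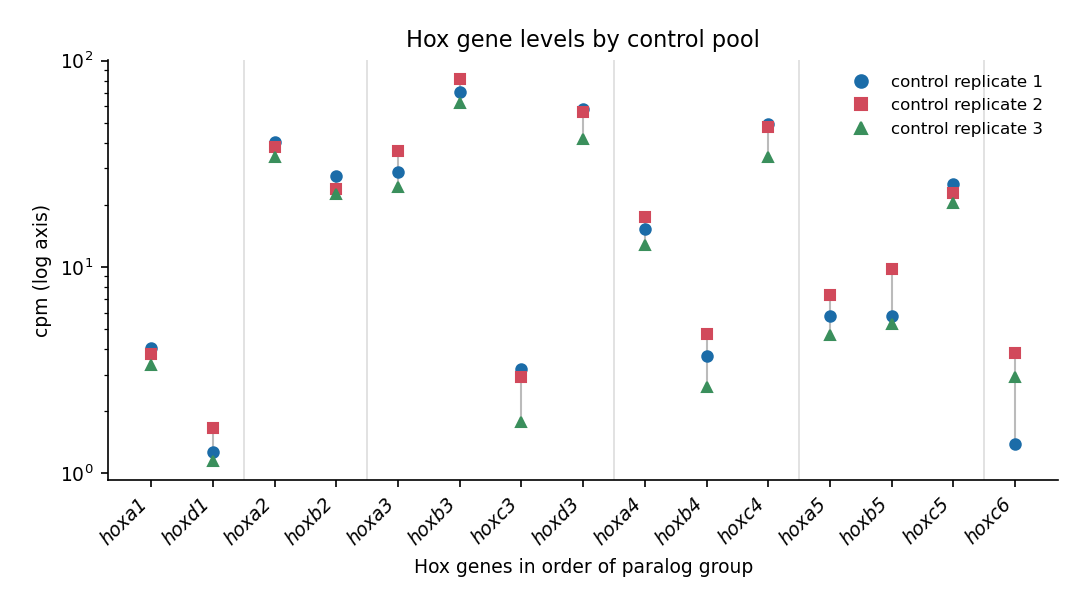
Cpm of the 15 Hox genes on a log axis, in order of paralog group from 1 to 6 with vertical lines between groups and 1 marker for each control pool. The triangle of replicate 3 is the lowest marker for every gene except *hoxc6*.

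Among transcription factor genes in families recognised by symbol, 285 of 297 models were expressed and they summed to 24698, 25492 and 25497 cpm. After *ybx1* and *id4*, described above, the highest were *atf4*, of the integrated stress response, at 803, 812 and 819 cpm, *ebf3* at 629, 582 and 667 cpm and *egr1*, induced by activity, at 424, 574 and 518 cpm. The values of *atf4* differed by a ratio of 1.02, while *egr1* was lowest in pool 1. *pou3f4*, *sox11*, *fos*, *hes6.1*, *nr1d1*, *meis2* and *tal2* completed the 12 highest. *pou3f4* and *sox11*, of neural precursors and young neurons, had 479.6 ± 24.2 cpm and 443 ± 19.9 cpm. *hes6.1*, which promotes neuronal differentiation, had 368 ± 17.5 cpm, and *tal2*, of midbrain GABA neurons, had 335 ± 21.8 cpm.

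Radial glia and progenitor genes were abundant. For 28 entries there were 31 models, some genes having several, and all were expressed, with sums of 11276, 10164 and 10342 cpm. *slc1a3*, the glial glutamate transporter, stood at 1254, 1222 and 1140.2 cpm, *vim* at 533, 495 and 525 cpm and *sox2*, the factor of neural stem cells, at 268, 293 and 315 cpm. These were steady over the pools. *fabp7*, the fatty acid-binding protein of radial glia, was not, at 1669, 963 and 1127 cpm, nor was *ptn*, a secreted growth factor, at 159.9, 75.2 and 74.3 cpm, and both were highest in pool 1. *aldoc* and *id4*, given above, were the highest members of the list.

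Cell cycle genes had small shares of reads. Of 24 models 21 were expressed, 8 of them above 10 cpm and none above 100 cpm, with sums of 279, 227 and 249.6 cpm. *mki67*, present in cycling cells, stood at 19.3, 17.4 and 14.7 cpm, the replication clamp *pcna* at 38.5, 23.95 and 30.4 cpm and the mitotic kinase *cdk1* at 5.77, 4.01 and 6.97 cpm. The mitotic cyclin *ccnb1.2* was level at 5.83, 5.74 and 6.03 cpm. *mcm7*, of the replicative helicase, had 30.3 ± 3.42 cpm and the centromeric histone *cenpa* 45.3 ± 8.195 cpm.

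Between progenitors and mature neurons, genes of neurogenesis were all expressed, 25 models with sums of 3829.7, 3836 and 3896 cpm, a ratio of 1.02. *tubb3* stood at 518, 501 and 493 cpm, *sox4* at 268 ± 22.01 cpm, and the Notch ligand *dll1* at 149.6 ± 20.7 cpm. The proneural genes *neurog2* and *neurog1* had 16.1 and 7.49 cpm on average. The differentiation factors *neurod1* and *neurod2* had 71.3, 85.5 and 91.3 cpm and 62.9, 78.99 and 92.7 cpm, both lowest in pool 1 and highest in pool 3.

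Myelin genes were expressed at this stage. For 23 oligodendrocyte entries 20 models were found and 19 were expressed, with sums of 755, 854 and 822 cpm. The highest member, not named here, had a mean of 363 cpm, and the median member had 19.9 cpm. Myelin basic protein, *mbp*, stood at 111, 157 and 118 cpm. The precursor receptor *pdgfra* had 21.3, 24.1 and 31.8 cpm, *olig2* 10.999, 12.9 and 8.53 cpm, and *mag*, of the myelin next to the axon, 15.7, 27.3 and 21.8 cpm. Both *mbp* and *mag* were highest in pool 2.

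Genes of vessels and immune cells had modest shares of reads. The tight junction gene *cldn5*, of brain endothelium, stood at 211, 222 and 238 cpm and the glucose transporter *slc2a1* at 77.9, 78.95 and 80.6 cpm, while the endothelial cadherin *cdh5* had 15.6, 12.1 and 11.6 cpm. The lipid transporter of the blood-brain barrier *mfsd2a* had 90.997, 92.7 and 83.5 cpm. Endothelial and pericyte sums were 568, 605 and 630.3 cpm, even over the pools. Microglial and immune genes were among the lowest lists, with 13 models found for 22 entries, 11 expressed and sums of 164, 137 and 168 cpm. The macrophage receptor *csf1r* had 6.55, 7.43 and 9.36 cpm and *p2ry12*, of resting microglia in mammals, 1.04, 1.24 and 4.47 cpm. Of the 11 expressed members 8 were highest in pool 3, against 27.9% of all expressed models. *apoe*, made by glia and macrophages, stood at 61.5, 27.4 and 47.6 cpm, lowest in pool 2.

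Genes of red blood cells were detected in every pool. The erythroid list had 10 models for 21 entries and sums of 521, 702 and 551 cpm. The globin genes *hbd* and *hba3* stood at 206, 232 and 185 cpm and 96.7, 148 and 121 cpm, and the heme enzyme *alas2* and the factor *gata1* at 87.7, 158 and 109 cpm and 14.2, 29.6 and 15.4 cpm. Pool 2 was the highest for these 4 and for 6 of the 10 erythroid members, against 34.7% of all expressed models, while 3 members were highest in pool 3 and 1 in pool 1. Globin genes have close copies, so the split between them is uncertain.

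Among genes of the tissues that border the brain, those of the choroid plexus and roof plate summed to 1052, 903 and 1015 cpm. *rbp4*, the retinol carrier, stood at 344, 221 and 308 cpm, and *kcnj13*, a potassium channel of this epithelium, at 89.9, 80.2 and 63.8 cpm. The keratins *krt8.1* and *krt18.1*, of simple epithelia in general, had 220.0 ± 26.2 cpm and 198 ± 2.69 cpm. Motile cilium genes were low once the tubulins were set aside, the other 21 models summing to 161, 195 and 187 cpm. *foxj1*, the factor that switches on motile cilia, had 6.15, 6.44 and 8.94 cpm. Meningeal and mesenchymal genes summed to 222, 251 and 249.9 cpm, with *crabp2*, *aldh1a2* and *col1a2* at 71.6 ± 4.76 cpm, 35.7 ± 5.21 cpm and 31.7 ± 4.38 cpm.

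Genes of light-sensing tissue were detected at a low level. For 32 retina, lens and pineal entries 17 models were found, 16 were expressed, and the sums were 260.3, 211 and 247 cpm. *asmt*, the last enzyme of melatonin synthesis, stood at 40.3, 29.9 and 35.2 cpm, *crx*, of photoreceptors in retina and pineal, at 10.7, 9.54 and 11.6 cpm, and *rpe65*, of the visual cycle, at 34.2, 27.7 and 27.04 cpm. The lens gene *lim2* had 7.39, 4.09 and 4.06 cpm, and the alpha crystallin *cryaa* was below 1 cpm in every pool, at 0.751, 0.3303 and 0.104 cpm. In pool 3 *cryaa* lay under the floor of 3 counts. No model with the symbol of rhodopsin, *rho*, or of the beta crystallins listed was among those analysed. Pool 2 was the lowest for 9 of the 16, against 33.7% of all expressed models.

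Genes of other head tissues gave similar sums, with 249, 273 and 274 cpm for cartilage and notochord, 286, 246 and 284 cpm for epidermis and 178, 197 and 187 cpm for ear and olfactory epithelium. At 10 cpm or more were 6 of 13 cartilage, 7 of 10 epidermal and 3 of 11 ear and olfactory models. The epidermal list, of which no member is named here, had a median of 20.0 cpm and a highest member at 67.7 cpm. Some defining members of the other lists were low. The cartilage proteoglycan *acan* stood at 1.15, 1.11 and 1.04 cpm and the olfactory neuron gene *omp* at 5.399, 3.76 and 4.06 cpm. The hair cell factor *pou4f3* had 10.97, 12.8 and 12.7 cpm. The cartilage list was led by *sox9*, which radial glia also express, at 143 ± 9.33 cpm, and the ear and olfactory list by *gnal*, which forebrain neurons also express, at 128 ± 6.44 cpm. The cartilage collagen gene *col2a1* was not among the low members, at 44.8, 46.4 and 62.6 cpm.

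**Figure D4:**
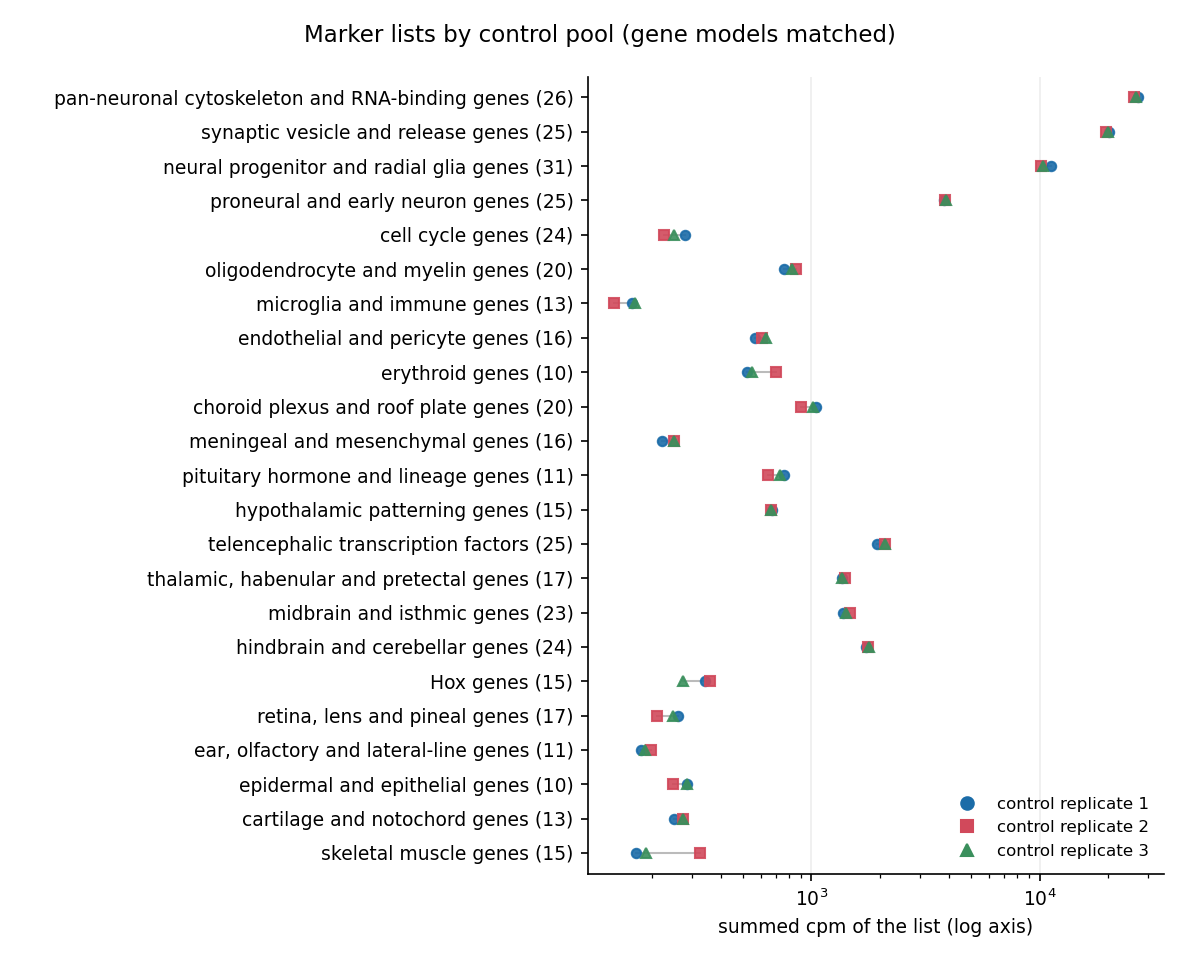
Summed cpm of 23 marker lists on a log axis, with 1 marker for each control pool and the number of gene models matched in brackets. For most lists the markers nearly coincide, and skeletal muscle, erythroid and Hox lists spread the most, with muscle at 170, 324 and 188 cpm in pools 1, 2 and 3.

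Skeletal muscle had the most uneven sum of the 50 lists. For 28 entries 15 models were found and 13 expressed, with sums of 170, 324 and 188 cpm. Pool 2 was the highest for 10 of the 13, against 34.7% of all expressed models, and 9 of the 13 differed by a ratio over 2, against 5.22% of all expressed models. Creatine kinase, *ckm*, stood at 22.3, 92.5 and 32.97 cpm, the sarcomeric actin *actc1* at 10.8, 41.9 and 15.7 cpm and the fast myosin light chain *myl1* at 7.53, 21.7 and 9.05 cpm. The troponins *tnnt3*, *tnnc2* and *tnni2* had 4.97, 15.8 and 7.38 cpm, 5.54, 14.5 and 4.78 cpm and 4.94, 13.3 and 3.95 cpm. Summed over 9 fast muscle genes, picked after their values were seen, the pools had 67.8, 226 and 82.7 cpm, a ratio of 3.33. By contrast, *tpm1*, a tropomyosin that other cells also use, was level at 80.1, 75.2 and 74.4 cpm. No model with the symbol of the master factor *myod1* or of the giant proteins *ttn* and *neb* was among those analysed. Without pool 2 the mean sum of the list fell from 227 to 178 cpm.

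Across all 14211 expressed models the median CV over the pools was 12.3%. The median of the CV beyond counting was 10.3%. For this the part due to counting was taken from the squared CV of each model, so the 2 medians cannot be subtracted. The median ratio of highest to lowest pool was 1.27. A ratio over 1.5 was found for 3243 models (22.8%) and over 2 for 742 (5.22%). The spread fell as the level rose, from a median CV of 22.9% at 1 to 3 cpm to 6.05% at 1000 cpm and above. Between 1 and 3 cpm 19.0% of models had a ratio over 2, between 100 and 300 cpm 0.699%, and at higher levels none of the 423 models up to 1000 cpm and none of the 103 above it. Fitted over all expressed models by edgeR, the common biological CV was 15.5%, and it was 11.2% without pool 1, 14.9% without pool 2 and 18.2% without pool 3. The shallowest pool was thus not the one whose removal lowered it.

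Nearly the same value in every pool was found for *smg1*, a kinase of RNA surveillance, at 27.7, 27.7 and 27.7 cpm. The accessory proton pump gene *atp6ap2* had 323, 322 and 322 cpm and the endoplasmic reticulum gene *herpud1* 173, 173 and 172 cpm. With *katnbl1*, *paxbp1* and *txndc16* these were among the 8 of smallest CV, of the models with a symbol at 10 cpm or more whose CV beyond counting was 0. The spread of each was no larger than counting error alone, and with 8786 models ranked some such values are found by sorting.

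At the other end, the 12 largest ratios among expressed models with a symbol at 10 cpm or more lay between 2.81 and 5.06. Those of *acta4*, *ckm*, *actc1* and *myl1* belong to muscle. *acta4*, an alpha actin, stood at 7.91, 35.3 and 6.97 cpm, with pool 2 above the other pools. *rpl32*, a ribosomal protein gene, and *ndufa3*, of respiratory complex I, had 66.9, 17.3 and 21.01 cpm and 39.5, 13.96 and 23.7 cpm, both highest in pool 1 and lowest in pool 2. *tgm1*, a transglutaminase of keratinocytes, had 7.42, 13.7 and 22.2 cpm and the metalloproteinase *mmp9.1* 8.401, 16.6 and 5.51 cpm, with no order in common. *sccpdh*, *apmapl*, *tcf3* and *marchf5* completed the 12, and for *tcf3*, an E protein gene, the pools had 21.5, 10.3 and 31.2 cpm. A larger ratio was shown by *leng8*, chosen after its values were seen, at 13.1, 0.372 and 17.5 cpm. It was under 1 cpm in pool 2 and so not among the expressed models.

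Among the most uneven models, pools 1 and 2 often lay at opposite ends. Of 156 models at 10 cpm or more with a ratio over 2, 103 were highest in pool 1 and 88 lowest in pool 2, and 76 were both, or 48.7%, against 23.8% of all 9676 models at that level. The ribosomal protein genes shared this order, with 17 of the 75 at a ratio over 2, against 5.22% of all expressed models. Their median ratio of pool 1 to pool 2 was 1.80, against 0.99 over all expressed models. *rpl7* stood at 1114, 706 and 840.4 cpm and *rps6* at 807, 544 and 628 cpm. Respiratory chain genes followed, with 21 of 25 lowest in pool 2 and a median ratio of 1.63, against 33.7% and 0.99 over all expressed models. *cox4i1*, of cytochrome oxidase, had 289.6, 172 and 216 cpm and *atp5mc3*, of the ATP synthase, 349.6, 212 and 249 cpm. The other 4 members, *uqcrc1*, *uqcrc2*, *ndufs1* and *slc25a4*, were lowest in pool 1, and *atp5f1a*, the alpha subunit of the ATP synthase, differed little, at 684, 677 and 700.0 cpm.

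Gene size moved with this order. By the RefSeq annotation of assembly UCB_Xtro_10.0, another assembly than that of the counts and used here only for the span of each gene including introns, the 519 models with pool 1 over 1.5 times pool 2 had a median span of 7.30 kb. The 251 models with pool 2 over 1.5 times pool 1 had 32.7 kb, all 8786 models with a symbol at 10 cpm or more had 22.3 kb, and the ribosomal protein genes had 5.85 kb. The part that gene size had in the order of the pools was not tested.

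**Figure D5:**
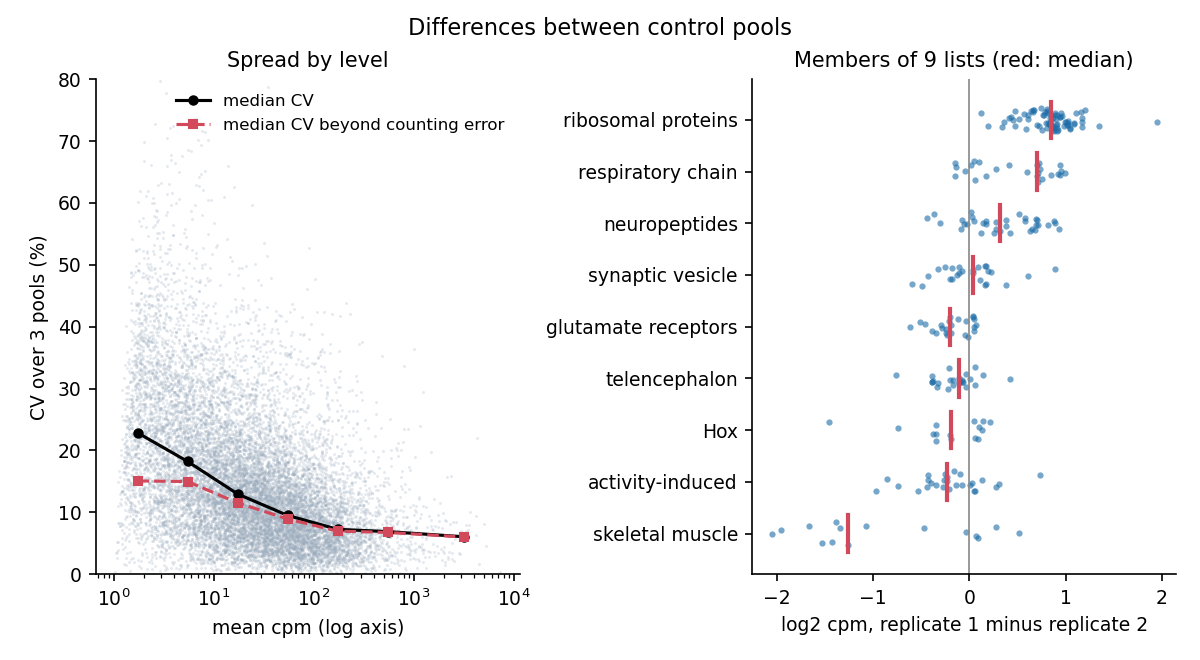
Left, CV over the 3 control pools against mean cpm (log axis) for expressed models, with the median CV and the median CV beyond counting error by level, and 4 models above 80% outside the axis. Right, the log2 cpm difference of replicate 1 minus replicate 2 for the members of 9 lists, each with its median in red, which lies to the right for ribosomal proteins and to the left for skeletal muscle.

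Genes that respond to recent activity and to the time of day were expressed, and the sums of both lists were uneven to a small degree. Mean levels of their members ran from 2.99 to 505 cpm and from 2.37 to 356 cpm, so no single level matches either list. The median CV was 13.7% for activity-induced and 16.2% for clock genes. It was 12.3% over all expressed models and 9.50% for those at 30 to 100 cpm, where the list medians lay. A ratio over 2 was found for 2 of 27 activity-induced and 3 of 22 clock genes. The share was 5.22% of all expressed models, 1.13% at 30 to 100 cpm and 9.91% at 3 to 10 cpm. Whether these genes varied more than others of like level was not tested. The 27 activity-induced genes summed to 2569, 3086 and 2861 cpm, and 17 were lowest in pool 1, against 38.0% of all expressed models. *fos* stood at 354, 396 and 389 cpm, *arc*, of active synapses, at 199.7, 269 and 236 cpm, *npas4* at 108, 146 and 115 cpm and *junb* at 199, 263 and 231 cpm. All 4 were lowest in pool 1 and highest in pool 2. The clock list, 22 models, summed to 1542, 1765 and 1732 cpm, and 13 were lowest in pool 1, against the same 38.0%, among them *nr1d1* at 293, 366 and 409 cpm and *per3* at 234, 296 and 283 cpm. The core activator *arntl* was nearly level at 19.6, 19.04 and 21.9 cpm. Heat shock genes showed no common order, with *hspa8* at 919, 689 and 635 cpm, *hsp90ab1* at 907, 1098 and 1008 cpm and the inducible *hsp70* at 15.2, 17.01 and 21.5 cpm.

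Genes of thyroid hormone transport, activation and response were mostly low. For 21 entries 16 models were found and 11 were expressed. The receptor *thrb* stood at 6.41, 7.85 and 5.62 cpm, the activating deiodinase *dio2* at 6.55, 7.06 and 3.54 cpm and the inactivating *dio3* at 2.89, 2.02 and 3.64 cpm. The direct target *thibz* was below 1 cpm in every pool, at 0.433, 0.991 and 0.624 cpm, and *klf9*, another target, was near it, at 1.299, 1.98 and 0.936 cpm. For *thra* no model with that symbol was among those analysed.

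For 34 potassium and HCN channel entries 29 models were found, and for 29 sodium and calcium channel entries 26 models. All of these were expressed, with sums of 1172, 1111 and 1091 cpm and 2104, 2107 and 1987 cpm. The sodium channel genes *scn3a* and *scn1a*, in mammals the form of early and of later neurons, had 246, 248 and 218 cpm and 80.98, 59.9 and 61.2 cpm, and their shares of reads did not overlap. Their accessory subunit *scn2b* had 416 ± 8.604 cpm. The channel-interacting protein gene *kcnip1* had 195 ± 34.96 cpm, the pacemaker channel *hcn2* 128 ± 8.04 cpm and the fast potassium channel *kcnc2* 85.6 ± 6.47 cpm. The calcium channel subunits *cacna2d2* and *cacna1a* had 143 ± 13.8 cpm and 73.1 ± 5.69 cpm.

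Glycolytic genes were high and even, 17 of 18 models expressed with sums of 14987, 13887 and 14803 cpm. *pkm* stood at 1607 ± 56.8 cpm and *eno1* at 1198 ± 72.5 cpm. The brain lactate dehydrogenase subunit *ldhb* had 867, 725 and 771 cpm and the other subunit *ldha* 65.5, 58.5 and 70.2 cpm, again without overlap in share of reads. Last, the kinase genes of the DYRK family, to which the gene targeted in the other libraries belongs, were led by *dyrk2* at 71.1, 83.7 and 66.5 cpm. *dyrk1a.2* stood at 27.1, 29.4 and 26.8 cpm, *dyrk1a* at 21.2, 10.7 and 14.6 cpm and *dyrk3* at 6.15, 3.88 and 3.54 cpm. Pool 3 was the lowest for 3 of the 4, against 28.4% of all expressed models, and pool 2 for *dyrk1a*. So few models give no order for the family.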

How the data were processed

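RNA-seq of pooled brains was read from 3 uninjected control libraries. Per the labels and the study's methods, RNA was extracted with Trizol, selected for polyA and made into unstranded libraries. The XenBase v9.1 assembly was the target of the authors' alignment by STAR 2.7.3, and the values they deposited are unnormalized counts of each gene model. Reads of overlapping genes on opposite strands therefore cannot be told apart, and how reads matching several genes were treated is not given in the sources used here. Log2 values, also deposited by the authors, were checked to equal log2(cpm + 1) of the same counts within 1e-08, on 15079 lines for 15076 models above 1 cpm in at least 3 of the 6 libraries. Gene symbols came from that table, 12509 in all, and the first was kept for 3 models with a pair of symbols. The deposited exon counts were not used.

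Counts were scaled with TMM factors of 0.988, 1.01 and 1.00 (R 4.3.3, edgeR 4.0.16), and tables and plots were made with Python 3.11.15, pandas 2.3.3, numpy 2.4.6 and matplotlib 3.10.9. The paper's limit of 1 cpm was applied in all 3 control libraries, on plain library totals. Levels and spread are descriptions and no group was tested against another. The chi-square of pairs used models with at least 10 counts in the pair, as a check for repeated deposits. CV beyond counting is the CV after subtraction of the Poisson part. The spread estimate and the chi-square were tested on simulated data.

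Named genes were the 25 of highest mean cpm and the 12 transcription factor genes of highest mean cpm. From each list up to 6 of highest mean cpm and the defining members were named. Among models with a symbol at 10 cpm or more, the 12 of largest ratio and the 8 of smallest CV beyond counting were named. Many of these CVs were tied at 0 and were ordered by plain CV. Some genes that this rule names are not reported here. A symbol matched where identical or followed only by a dot and a number. The members and lists were chosen with earlier results of these data known. Alternatives were DESeq2 1.42.0 size factors, plain totals, other count limits, thinning to the shallowest library, the deposited log2 values and leaving out each pool. Genomic spans came from the RefSeq annotation of UCB_Xtro_10.0.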

Additional observations from a re-analysis of the deposited data

How the results depend on the processing

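The limit of 1 cpm was applied on plain library totals, so the number of expressed models, 14211, could not change with the scaling. Models with a ratio over 2 numbered 740 with DESeq2 size factors and 736 with plain totals, against 742. A limit of at least 10 counts in every pool gave 14790 expressed models, with 1110 at a ratio over 2. Thinning to the shallowest library gave 14106 and 915. With no limit beyond 1 count in any pool the expressed models numbered 22621 and those with a ratio over 2 numbered 7821, since models of few counts then enter. Leaving out 1 pool gave 258 to 393 such models, as fewer pools were compared. The common biological CV ranged from 11.2% to 18.2% over all settings. Of the 25 highest genes 24 or 25 were shared with every alternative order. None of the 50 list sums moved beyond 1 SD, the largest change being 21.7% for skeletal muscle without pool 2. Leaving out 1 of 3 pools shifts a mean by less than 1 SD whatever the values, so the sums could not cross this limit there. The other count limits left the members of each list unchanged and acted on the sums only through the scaling. Of the 50 list medians 1 moved beyond 1 SD with thinning, 1 without pool 1, 2 without pool 2 and 2 without pool 3, and the largest change was 0.69 on the log2 scale, for skeletal muscle without pool 2. Cpm per kb of coding sequence was not run because no transcript or protein lengths were in the tables used, so the order of different genes stays an order of read shares. Depth limits the low genes of pool 3, where 3 counts are 0.312 cpm. No paired analysis was possible because there is a single group and no contrast.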
